A study of Mus musculus with 6 samples.

Results

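Cycling Schwann cells of the newborn mouse sciatic nerve were followed in 2 single-cell RNA libraries, 1 at postnatal day 0 (P0) and 1 at postnatal day 7 (P7). A barcode was taken as a member when it held at least 500 unique molecular identifiers (UMIs, 1 per captured RNA molecule), at least 300 genes and at most 20% mitochondrial UMIs. It also had to show Sox10 or Cdh19, and at least 3 of the 6 cycle genes Mki67, Top2a, Cenpf, Cdk1, Ube2c and Nusap1. Barcodes with any UMI of Pdgfra (mesenchymal), Cdh5 (endothelial) or Csf1r (macrophage) were left out. By this rule 1498 cells were found, 1290 at P0 and 208 at P7, among 21149 barcodes kept from both ages and 57597 barcodes in the whole series. The members were set against Sox10 or Cdh19 cells of the same library with none of the 6 cycle genes, 2230 at P0 and 5930 at P7, called comparison cells here.

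The mice were C57BL/6 of both sexes, with no mutation or treatment named, and sciatic nerves of 22 animals at P0 and 21 at P7 were pooled into each library. The study followed the nerve from P0 to P60, while small axons are gathered into Remak bundles. Nerves were digested with collagenase and papain, and red and dead cells were removed. With 1 pooled library per age, differences between ages have no replicate check. The comparison of cycling with comparison cells has n = 2 libraries, which differ in age.

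Schwann cells are the glia of peripheral nerves. Around birth, immature Schwann cells divide in response to axonal signals such as neuregulin acting through ErbB receptors, while they sort axons and surround them with a basal lamina. Cells that pair with a large axon then leave the cycle and switch on Pou3f1 (Oct6) and Egr2 (Krox20), the factors that drive myelin genes and the lipid synthesis that myelin needs. Cells that stay with small axons become the non-myelinating Schwann cells of Remak bundles.

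The nerve libraries held between 60763221 and 101441907 UMIs, and 99.1% or more of those at P0 and P7 lay on the genes shared by both gene lists. Members were deeper than comparison cells: their median was 9380.5 against 6319.5 UMIs at P0 and 9327.5 against 8119 UMIs at P7. Their median mitochondrial share was 2.64% against 3.09% at P0 and 2.00% against 2.27% at P7. P0 and P7 shared 36 barcode sequences, and no barcode was removed for this. Myelin RNA was also found in another lineage. The 18 genes of the myelin list summed to 1767 CPM at P0 and 10280 CPM at P7 in mesenchymal cells (Pdgfra detected, no Sox10 or Cdh19). The parts of free RNA, mixed barcodes and the cells' own RNA in this were not tested. Levels are given as CPM (UMIs per 1000000 UMIs) of the summed cells, and intervals are 95% intervals that cover counting error only.

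The identity genes were compared first, as a check of the label. Sox10, the transcription factor that defines the Schwann lineage, was seen in 94.1% of P0 and 92.8% of P7 members, against 90.8% and 92.5% of comparison cells. Its level was 378 CPM in members and 409 CPM in comparison cells at P0, and 264 and 266 CPM at P7. Cdh19, the other gate gene, was seen in 62.5% of P0 and 73.1% of P7 members, against 49.6% and 43.7% of comparison cells. Since Sox10 and Cdh19 chose the cells, these values are a description only. Sox10 levels in members thus lay close to those of comparison cells at both ages, while Cdh19 was seen in a larger share of members.

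Markers listed for other cell types were also seen in members. Dcn, a matrix proteoglycan gene of fibroblasts, stood at 41.9 CPM in P0 and 75.8 CPM in P7 members, against 49.7 and 109 CPM in comparison cells and 5219 and 11940 CPM in mesenchymal cells. The 7 mesenchymal markers together stood at 11600 CPM in P0 members and 10730 CPM in P0 comparison cells. At P7 they stood at 6716 and 4096 CPM. Most of this came from the collagen genes Col1a1 and Col3a1. In P0 and P7 mesenchymal cells the sums were 42480 and 101500 CPM. Col1a1 was seen in 99.1% of P0 members and 97.5% of P0 comparison cells, and in 98.1% and 96.6% at P7. Erythroid markers stood at 711 CPM in P0 members and 1180 CPM in P0 comparison cells, and were below 1 CPM in both at P7. Mural markers stood at 129 and 135 CPM at P0, and at 176 and 121 CPM at P7. Endothelial markers summed to 25.7 CPM in P0 and 19.7 CPM in P7 members. Macrophage markers stood at 42.9 CPM in P7 members and 16.1 CPM in P7 comparison cells, and at 14.3 and 17.6 CPM at P0. The 5 melanocyte markers stood at 149 CPM in P7 members and 50.7 CPM in P7 comparison cells. Pmel supplied most of this, at 115 against 42.1 CPM, while Tyr and Mlana were at 0 in both classes at P7. Whether members made any of this RNA themselves, and its part in the results below, was not tested. The gate itself is loose: of all Pdgfra-positive barcodes, 37.8% at P0 and 45.6% at P7 also had a UMI of Sox10 or Cdh19, and the exclusion genes removed these.

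The share of cycling cells was taken over Sox10 or Cdh19 cells without Pdgfra, Cdh5 or Csf1r, and was far lower after P0. At P0 it was 22.2% (95% Clopper-Pearson interval 21.1 to 23.3%, 1290 of 5812 cells). At P7 it was 3.02% (2.63 to 3.45%, 208 of 6890 cells). The same gate, applied to the libraries that did not choose the members, gave 3.15% at P14 (2.10 to 4.52%, 28 of 889 cells), 0.466% at P28 (0.213 to 0.883%, 9 of 1930 cells) and 0.486% at P60 (0.158 to 1.13%, 5 of 1029 cells). The P7 and P14 intervals overlap, as do those at P28 and P60.

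Detection depends on depth, so each cell was also thinned to 2000 UMIs before the gate was applied. This left out 854 of the P0 and 174 of the P7 gate cells as too shallow. The shares became 14.7% at P0 and 1.95% at P7. They were 3.05% for P14, 0.256% for P28 and 0.230% for P60. The step from P0 to P7 remained, and P14 was not below P7. Requiring 2 of the 6 genes gave 34.3% at P0 and 4.46% at P7, and requiring 4 gave 16.7% and 2.12%. Mesenchymal cells of the same libraries, taken by Pdgfra and without Schwann genes, also held more cells with cycle genes at P0: Mki67 was seen in 23.7% of 236 such cells at P0 and in 3.86% of 700 at P7.

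**Figure D1:**
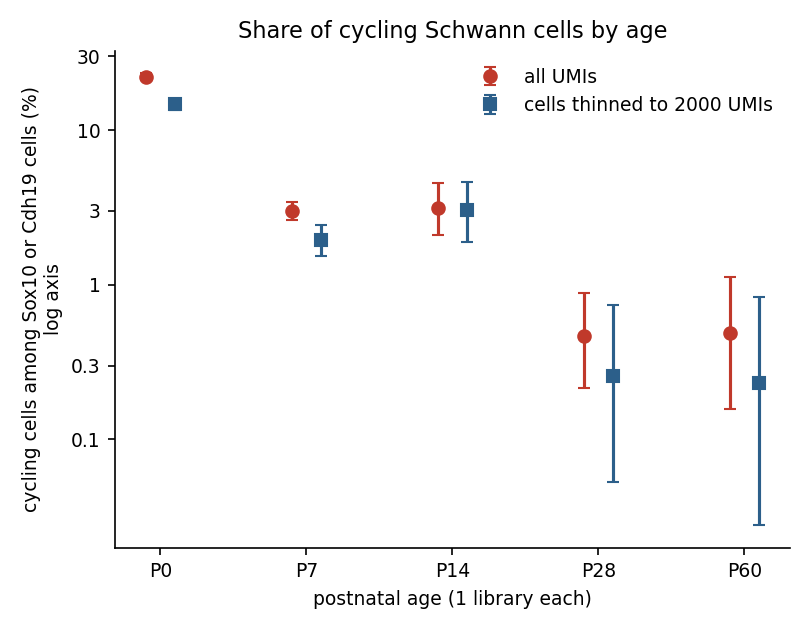
Share of cycling cells among Sox10 or Cdh19 cells (percent, log axis) in the library of each age; circles use all UMIs, squares use cells thinned to 2000 UMIs, and bars are 95% Clopper-Pearson intervals. The share is 22.2% at P0, close to 3% at P7 and P14, and below 0.5% at P28 and P60.

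The 6 genes of the rule mark different moments of division. Cdk1 is the kinase that drives entry into mitosis, Top2a untangles replicated DNA, Cenpf and Nusap1 act at kinetochores and spindle microtubules, Ube2c feeds cyclins to the proteasome, and Mki67 coats mitotic chromosomes. Among P0 members, Mki67 was seen in 90.2%, Cenpf in 88.6%, Top2a in 81.2%, Ube2c in 77.8%, Cdk1 in 77.2% and Nusap1 in 65.6%. At P7 the corresponding shares were 95.7%, 85.1%, 81.2%, 74.5%, 76.0% and 65.9%. Comparison cells have none by construction, and these values support nothing further.

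Because choosing cells on a gene inflates that gene, the UMIs of each cell were also split at random in 2. Both classes were chosen anew on 1 part, and levels were read from the other. This gave 898 members and 2548 comparison cells at P0, and 144 and 5040 at P7. In the part not used for the choice, Mki67 stood at 774 CPM in P0 members and 19.6 CPM in P0 comparison cells, and at 859 and 1.40 CPM at P7. Cenpf stood at 1096 and 15.9 CPM at P0, and at 1322 and 2.63 CPM at P7. The comparison cells of this split thus held more RNA of both genes at P0 than at P7. They are not the comparison cells used elsewhere, since cells whose cycle UMIs all fell in the other part are among them.

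Genes of DNA replication and mitosis followed the rule genes, and are given as a description with no test reported. The 32 genes of DNA replication, from the Mcm helicase to nucleotide synthesis, summed to 2066 CPM in members and 471 CPM in comparison cells at P0, and to 2646 and 273 CPM at P7. All 32 were higher in members at both ages. Rrm2, which makes deoxynucleotides, stood at 131 against 7.47 CPM at P0 and 190 against 1.495 CPM at P7. Uhrf1, which keeps DNA methylation through replication, stood at 86.1 against 5.59 CPM and 114 against 0.978 CPM. Clspn, a replication checkpoint adaptor, stood at 104 against 6.59 CPM and 86.8 against 1.22 CPM.

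The 40 mitosis genes summed to 8736 CPM in members and 613 CPM in comparison cells at P0, and to 8404 and 196 CPM at P7. At both ages 39 of the 40 were higher in members, and Pttg1 (securin) was the exception, with 44.8 against 49.4 CPM at P0 and 57.0 against 57.3 CPM at P7. Hmmr, a spindle protein gene, stood at 232 against 5.85 CPM at P0 and 235 against 0.314 CPM at P7. Kif11, a spindle motor gene, stood at 165 against 3.50 CPM and 183 against 0.406 CPM. The transcription factor Foxm1, which activates mitotic genes, stood at 90.4 against 4.37 CPM and 71.9 against 1.33 CPM.

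How the members vary among themselves was read from the number of the 6 genes detected. At P0, 321 members had 3, 209 had 4, 160 had 5 and 600 had 6, while at P7 the numbers were 62, 25, 17 and 104. Just outside the threshold, with 2 genes, lay 702 cells at P0 and 99 at P7. Summed mitosis RNA was 1147 CPM with 2 genes and 3317 CPM with 3 at P0, and 1108 and 2564 CPM at P7, and it climbed to 11260 and 11270 CPM in cells with all 6. So the cells just outside held more mitosis RNA than the comparison cells, and the members with 3 held less than those with 6.

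DNA replication RNA took another course at P7. It was 1190 CPM with 2 genes, 2631 CPM with 3, 4965 CPM with 4, 4032 CPM with 5 and 2143 CPM with 6, so it was highest in the middle of the range. At P0 it went from 1209 CPM with 3 genes to 2381 CPM with 5 and 2378 CPM with 6. The P7 values with 4 and 5 genes rest on 25 and 17 cells. Per cell, the share of UMIs on DNA replication genes among P7 members had a median of 0.103% and a 90th percentile of 0.724%, a wide spread, against 0.132% and 0.524% at P0.

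**Figure D2:**
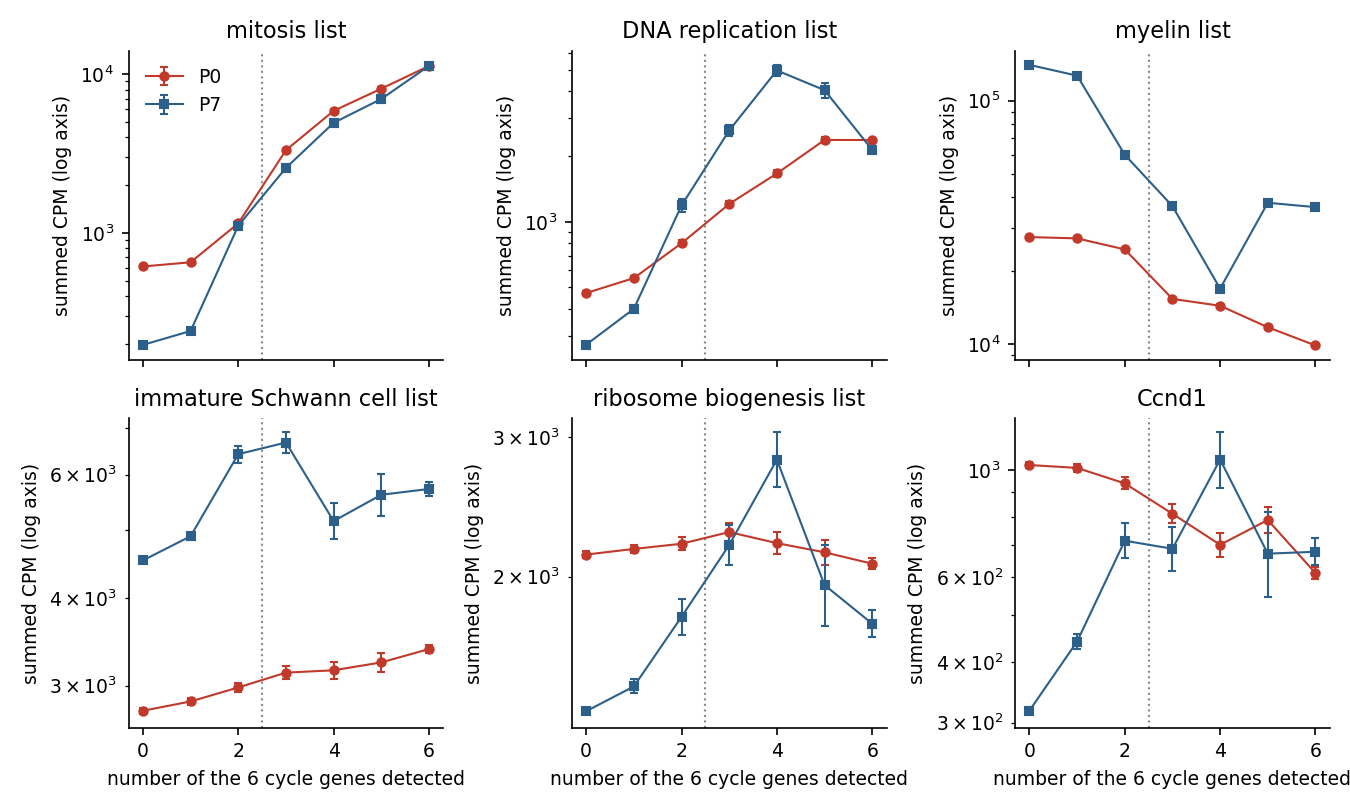
Summed CPM (log axes) of 5 gene lists and of Ccnd1 in Sox10 or Cdh19 cells, by how many of the 6 cycle genes were detected (0 to 6), for P0 (circles) and P7 (squares); bars are exact 95% Poisson intervals and the dotted line marks the threshold for members. Mitosis RNA climbs to 11260 CPM at P0 and 11270 CPM at P7, while DNA replication RNA at P7 is highest, 4965 CPM, in cells with 4 genes.

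The promoters of these genes are shown because the members were chosen by genes that rise together. Mitotic genes are known to be timed by the CHR element with neighbouring CCAAT boxes, and S-phase genes by E2F sites. Below are the 160 bases before the start site, 5′ to 3′ on the gene's strand, from RefSeq (GRCm38.p6), with capitals marking every match on either strand to TTTGAA (CHR), CCAAT or TTTNNCGC (E2F). Mki67 lies at chr7:135716380-135716539 on the minus strand, Top2a at chr11:99024190-99024349 (minus), Cdk1 at chr10:69352913-69353072 (minus), Ube2c at chr2:164769769-164769928 (plus) and the replication helicase gene Mcm5 at chr8:75109349-75109508 (plus).
Mki67: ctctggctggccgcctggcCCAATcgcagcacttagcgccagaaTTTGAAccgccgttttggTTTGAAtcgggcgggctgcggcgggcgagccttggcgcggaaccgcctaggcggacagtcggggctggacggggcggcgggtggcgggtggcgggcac
Top2a: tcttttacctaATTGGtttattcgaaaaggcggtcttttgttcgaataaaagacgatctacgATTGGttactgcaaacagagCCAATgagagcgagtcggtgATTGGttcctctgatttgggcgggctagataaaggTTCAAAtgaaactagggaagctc
Cdk1: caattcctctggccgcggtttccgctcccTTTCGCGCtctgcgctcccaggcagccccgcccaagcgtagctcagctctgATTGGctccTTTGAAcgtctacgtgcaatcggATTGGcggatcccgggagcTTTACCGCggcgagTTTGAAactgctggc
Ube2c: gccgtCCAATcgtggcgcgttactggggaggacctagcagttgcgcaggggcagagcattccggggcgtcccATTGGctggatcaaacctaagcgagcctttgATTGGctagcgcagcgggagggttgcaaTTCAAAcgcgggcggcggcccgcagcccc
Mcm5: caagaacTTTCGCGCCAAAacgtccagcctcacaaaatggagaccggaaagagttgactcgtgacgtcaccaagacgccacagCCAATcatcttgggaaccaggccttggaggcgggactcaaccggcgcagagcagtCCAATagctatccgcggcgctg
The 4 rule genes shown carry CHR and CCAAT letters together, and the nearest CHR match starts at -98 in Mki67, -23 in Top2a, -15 in Cdk1 and -29 in Ube2c, counted from the start site. Of the other rule genes, Cenpf has CCAAT matches and its only CHR match at 3 after the start site, outside such a stretch, and Nusap1 has no match to any of the 3 motifs. The mitosis gene Ccnb1 has CCAAT but no CHR match. Mcm5 has no CHR match, and its 2 E2F matches, at -153 and -149, overlap on opposite strands. Over the whole window from 250 bases before to 50 after the start site, 26 of the 35 windows of mitosis genes (74.3%, 33 of the 40 genes matched) held the CHR letters, against 17.9% of all 32851 windows. CCAAT was in 71.4% of them against 37.4%, and the E2F letters in 8.57% against 5.17%. Windows of DNA replication genes (35 windows of 28 genes) held CHR in 11.4%, CCAAT in 57.1% and E2F in 42.9%. The same letters were in 9.09%, 40.9% and 0% of the 22 windows of myelin genes. A match describes letters in a window and shows no binding.

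On UMIs summed per library and class, 15399 genes were tested (edgeR quasi-likelihood with library as a block, Benjamini-Hochberg adjusted p under 0.05). They include the rule's genes, Sox10, Cdh19 and the listed cycle genes, whose values depend on the choice of cells. In members 944 genes were higher, 6.13% of those tested, and 597 were lower, 3.88%, so 10.0% were called in either direction. Of the 944 higher genes, 896 lay outside the rule's, gate and listed cycle genes. All called genes had the same sign in both libraries, and 4119 genes had an unadjusted p under 0.05. The median log2 fold change over all tested genes was -0.04. The scaling moved P7 log2 ratios by -0.29 and P0 ratios by 0.04 relative to plain CPM ratios, and the plain CPM ratio of the median gene was -0.04 at P0 and 0.26 at P7 on the log2 scale.

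Myelin genes were lower in members as a group. Of 18 tested, 14 were lower in members and none was higher, with a median log2 fold change of -1.91. Ncmap, a non-compact myelin protein gene, stood at 29.6 CPM in P0 members and 241 CPM in P0 comparison cells, and at 386 and 2022 CPM at P7. Members were lower in both libraries, although the P7 members lay above the P0 comparison cells, and mesenchymal cells, which should lack Ncmap, had 5.79 CPM at P0 and 124 CPM at P7. The log2 fold change was -2.83 (SE 0.15, n = 2 libraries, Benjamini-Hochberg adjusted p = 0.000216, edgeR quasi-likelihood), a 7.13-fold lower level. Under 2 of 13 other settings Ncmap no longer passed, the adjusted p lying between 2.06e-46 and 0.621 in the edgeR and DESeq2 fits (Benjamini-Hochberg). Its log2 fold change stayed between -4.31 and -2.10.

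Gldn, which encodes the nodal organiser gliomedin, stood at 5.09 against 38.0 CPM at P0 and 38.1 against 198 CPM at P7, a log2 fold change of -2.76 (SE 0.17). Pmp2, a lipid carrier of the sheath, stood at 1.18 against 6.93 CPM and 1.75 against 15.3 CPM. Prx, which links the sheath to the basal lamina, and Mag, an adhesion molecule facing the axon, also fell, by 1.85 and 2.11 on the log2 scale. The 4 myelin genes that did not pass were Mbp (log2 fold change -1.71), Mal (-0.90), Ugt8a (-1.43) and Cadm4 (-0.09). Cadm4 stood at 803 against 738 CPM at P0 and 566 against 582 CPM at P7.

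Seen cell by cell, myelin RNA separated the classes far more at P7 than at P0. The 18 genes made up a median of 1.02% of a member's UMIs at P0 and 1.35% at P7, against 1.43% and 11.5% in comparison cells. At P7 comparison cells ranged from 1.60% at the 10th to 22.3% at the 90th percentile, and 4.79% of them lay at or below the median member. At P0 that share was 18.6%. Mesenchymal cells had medians of 0.157% at P0 and 0.362% at P7.

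A few P7 members stood apart. Of the 208, 19 had more than 5% myelin UMIs (9.13%, against 60.4% of P7 comparison cells), and these held 69.3% of all myelin UMIs of the P7 members. Their median depth was 18973 UMIs, and 6 of them were called doublets, out of 10 doublet calls among all P7 members. The P7 sum of myelin RNA in members, 34810 CPM against 140400 CPM in comparison cells, therefore lies above what the median member shows. At P0 the sums were 11660 and 27500 CPM, and 7 members were over 5%. With called doublets removed, 11 myelin genes were lower. The part of doublets in the 19 cells was not tested.

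**Figure D3:**
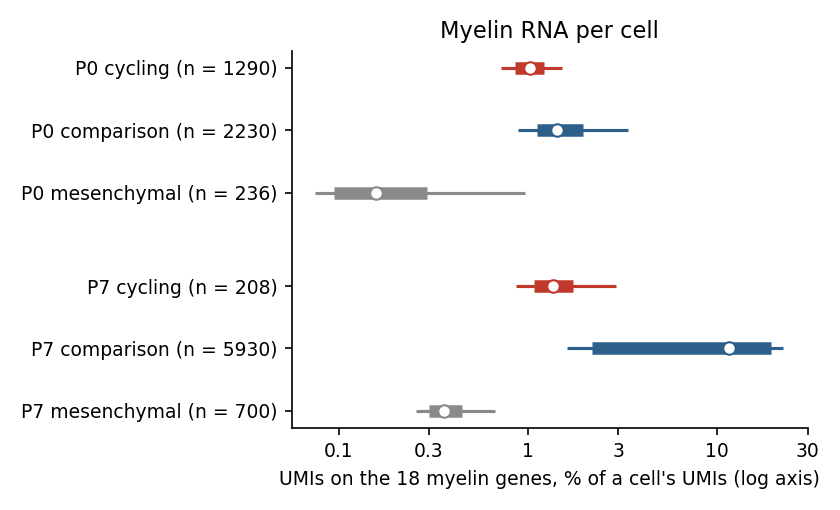
Share of a cell's UMIs on the 18 myelin genes (percent, log axis) in cycling, comparison and mesenchymal cells of both libraries; open circles are medians over cells, thick bars the 25th to 75th and thin bars the 10th to 90th percentile. The median member has 1.02% at P0 and 1.35% at P7, while P7 comparison cells reach from 1.60% to 22.3%.

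Genes of sterol and fatty acid synthesis, which supply myelin lipid, gave a number of calls that depended on the setting. Of 26 tested, 3 were lower and none was higher, with a median of -1.07. There were 23 lower with no low-count filter, 16 after thinning, 16 with DESeq2, 11 with P14 added, 8 with count splitting and 0 without the library block. The other settings gave 2 to 6. The plain log2 ratio was below 0 for all 26 at P0 (median -0.56) and for 25 at P7 (median -1.50). Mvd, an enzyme of the mevalonate pathway, stood at 9.09 against 27.8 CPM at P0 and 18.8 against 100.1 CPM at P7, with a log2 fold change of -2.09 (SE 0.29, adjusted p = 0.0132, edgeR quasi-likelihood, Benjamini-Hochberg). Elovl6, a fatty acid elongase gene, fell by 1.40 on the log2 scale (SE 0.27), and Acaca, which commits carbon to fatty acids, by 0.85 (SE 0.18). Both calls were lost under 2 of the 13 other settings, and after thinning the log2 fold change of Acaca was -0.13. Hmgcs1, an early enzyme of sterol synthesis, stood at 99.7 against 181 CPM at P0 and 330 against 1665 CPM at P7 and did not pass.

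Of 8 factors around the start of myelination, Egr2 and Pou3f1 were lower and none was higher. The median log2 fold change of the 8 was 0.13, and the plain ratio was above 0 for 6 of them at P0 and 5 at P7. Egr2 stood at 60.3 CPM in members and 141 CPM in comparison cells at P0, and at 165 and 377 CPM at P7, so the gap was of similar size at both ages. Its log2 fold change was -1.34 (SE 0.16, adjusted p = 0.00366, edgeR quasi-likelihood, Benjamini-Hochberg). Pou3f1 stood at 882 against 1632 CPM at P0 and 930 against 1172 CPM at P7, with a log2 fold change of -0.74 (SE 0.13), and lost its call under 2 of the 13 other settings. The remaining 6 of the 8 genes, among them the Egr2 cofactors Nab1 and Nab2 and the repressor gene Zeb2, did not pass. Zeb2 stood at 848 against 762 CPM and 1030 against 727 CPM.

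Of 16 immature Schwann cell genes tested, 5 were higher and none was lower, with a median of 0.68. After thinning to 2000 UMIs 1 was higher, without the library block 0, and under the other settings 4 to 7. Sox2, which holds Schwann cells immature and opposes myelination, stood at 223 against 137 CPM at P0 and 316 against 133 CPM at P7, a log2 fold change of 0.84 (SE 0.15, adjusted p = 0.0184, edgeR quasi-likelihood, Benjamini-Hochberg). Ncam1, an adhesion molecule gene, stood at 789 against 510 CPM and 390 against 117 CPM, a log2 fold change of 1.05 (SE 0.21). L1cam (0.94), the cadherin gene Cdh2 (0.76) and Egr3 (0.71) also passed. Ncam1 and L1cam each lost the call under 4 of the 13 other settings and Sox2 under 2. After thinning the log2 fold change was 0.35 for L1cam and 0.55 for Sox2, and neither passed.

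Several familiar markers of this state did not pass. Ngfr, the p75 neurotrophin receptor gene, stood at 113 against 77.4 CPM at P0 and 114 against 35.0 CPM at P7 (adjusted p = 0.0502, edgeR quasi-likelihood, Benjamini-Hochberg), and Notch1 stood at 136 against 100.1 CPM and 106 against 48.3 CPM. Jun, a regulator of repair and immature Schwann cells, stood at 749 against 794 CPM and 2720 against 2816 CPM. Per cell, the 16 genes made up a median of 0.327% of UMIs in P0 members and 0.279% in P0 comparison cells, and 0.612% and 0.470% at P7, with wide overlap.

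Of 8 non-myelinating Schwann cell genes tested, 3 were higher and 1 was lower. The 3 were the adhesion molecule genes Ncam1, L1cam and Chl1, of which Ncam1 and L1cam are also on the immature list. Chl1 stood at 139 against 93.0 CPM at P0 and 125 against 35.8 CPM at P7, and its call was lost under 7 of the 13 other settings. Cadm3, also an adhesion molecule gene, went the other way, with 3.21 against 9.15 CPM at P0 and 12.7 against 59.8 CPM at P7. Scn7a, a sodium channel gene of non-myelinating cells, stood at 144 against 105 CPM and 219 against 138 CPM and did not pass. Gfap had too few UMIs to be tested.

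Of 10 Schwann identity genes, 3 were lower. S100b, a calcium-binding protein gene of mature glia, stood at 104 against 201 CPM at P0 and 329 against 458 CPM at P7, a log2 fold change of -0.85 (SE 0.15). Erbb3, the neuregulin receptor gene, stood at 334 against 347 CPM and 357 against 273 CPM, with a log2 fold change of 0.04 (SE 0.14). Foxd3 and Itga6 did not pass either.

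Inhibitors of the cell cycle moved in both directions. Of 16 tested, 4 were higher and 3 were lower in members. Those lower were the 3 genes of the Cip/Kip family, which restrain Cdk2 complexes. Cdkn1a (p21) stood at 151 against 284 CPM at P0 and 293 against 670 CPM at P7, a log2 fold change of -1.18 (SE 0.19, adjusted p = 0.0128, edgeR quasi-likelihood, Benjamini-Hochberg). Cdkn1b (p27) stood at 107 against 199 CPM and 256 against 582 CPM, a log2 fold change of -1.17 (SE 0.19). Cdkn1c (p57) stood at 1216 against 2839 CPM at P0 and 503 against 574 CPM at P7, so most of its difference lay at P0.

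Those higher were 3 genes of the Ink4 family and the pocket protein gene Rbl1. Members were chosen on cycle genes, so a rise of inhibitor genes that vary with the cycle can follow from that choice. The part of the choice in these 4 rises was not tested. Cdkn2c (p18) stood at 170 against 21.7 CPM at P0 and 266 against 35.7 CPM at P7, a log2 fold change of 2.80 (SE 0.18, adjusted p = 0.000319, edgeR quasi-likelihood, Benjamini-Hochberg). It climbed with the number of cycle genes, from 43.0 CPM with 3 to 242 CPM with 6 at P0 and from 63.5 to 373 CPM at P7. Cdkn2d (p19) rose by a log2 fold change of 1.95 (SE 0.15). Rbl1 (p107), known as an E2F target, rose by 3.73 (SE 0.22). Cdkn2a passed on low levels, 8.46 against 0.808 CPM at P0 and 13.6 against 0.184 CPM at P7, and its UMIs cannot be split between the 2 proteins this locus encodes.

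The D-type cyclins, which carry growth signals to Cdk4 and Cdk6, are given as a description. Ccnd1 stood at 679 CPM in members and 1023 CPM in comparison cells at P0, but at 714 and 318 CPM at P7. Members thus had nearly the same level at both ages (P7 over P0 1.05, interval 0.998 to 1.11), while comparison cells fell to 318 CPM. Ccnd3 stood at 62.6 against 128 CPM at P0 and 105 against 75.02 CPM at P7. Ccnd2 stood at 125 against 351 CPM at P0 and was low in both classes at P7, 13.2 against 12.9 CPM.

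**Figure D4:**
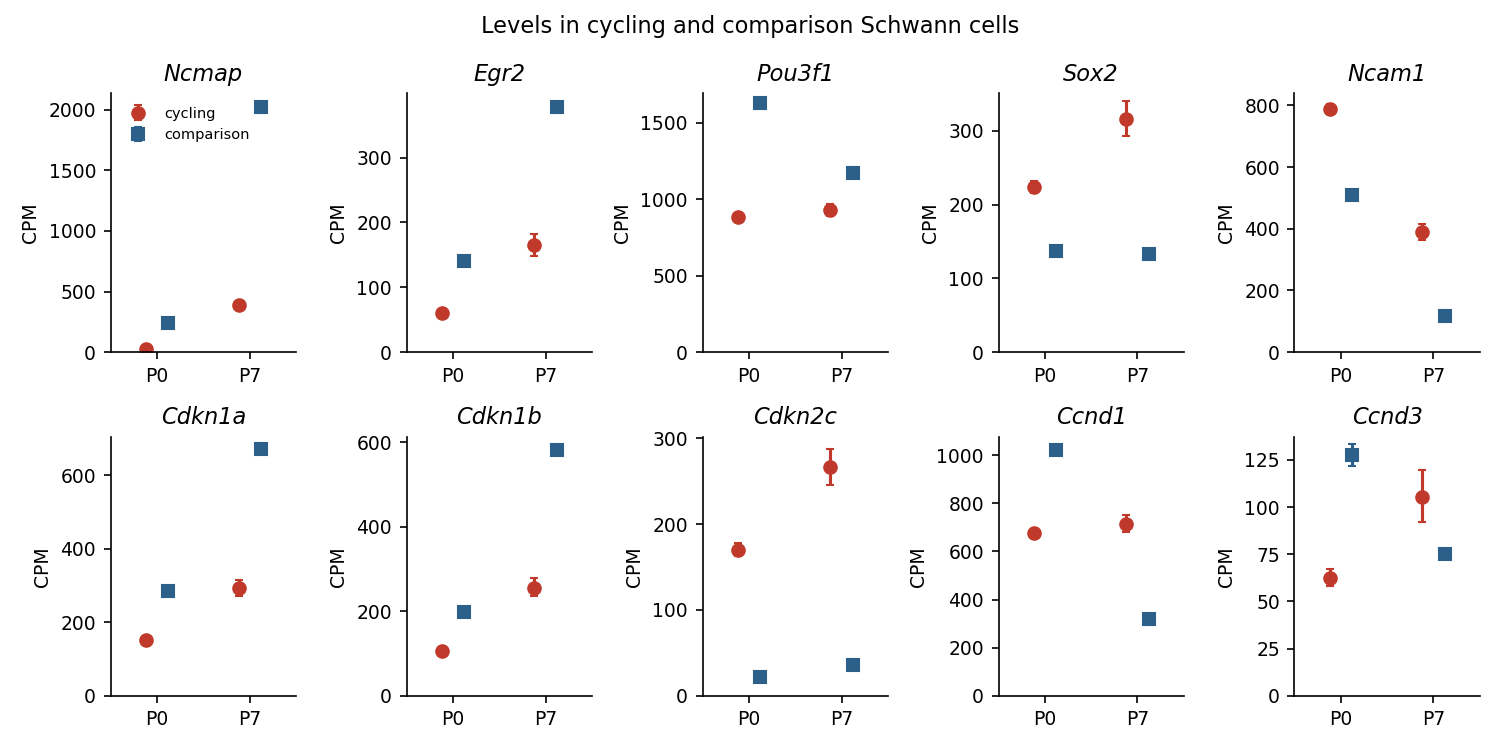
Levels (CPM, linear axes from 0) of 10 genes in cycling (circles) and comparison (squares) Schwann cells of the P0 and P7 libraries, with exact 95% Poisson intervals where wider than the symbol. Ncmap, Egr2, Pou3f1, Cdkn1a and Cdkn1b are lower in cycling cells at both ages, Sox2, Ncam1 and Cdkn2c are higher, and Ccnd1 and Ccnd3 are lower at P0 and higher at P7.

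None of 13 receptors for axonal and matrix signals passed, and their median log2 fold change was 0.19. Erbb2, the partner of Erbb3, stood at 53.5 against 51.4 CPM at P0 and 46.9 against 36.1 CPM at P7. Lpar1, a lysophosphatidic acid receptor gene, stood at 453 against 378 CPM and 472 against 217 CPM. Pdgfrb stood at 20.8 against 37.5 CPM and 13.6 against 43.1 CPM.

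Of 9 ligand genes with enough UMIs, Tgfb1 alone was called. It stood at 23.0 against 10.4 CPM at P0 and 27.2 against 5.59 CPM at P7, a log2 fold change of 1.57 (SE 0.26, adjusted p = 0.0138, edgeR quasi-likelihood, Benjamini-Hochberg). After thinning it was 1.07 and did not pass, so no ligand gene was called, and the call was also lost without the library block. TGF-beta is known both as a growth and as a death signal for Schwann cells. Pdgfa stood at 257 against 228 CPM and 219 against 155 CPM and did not pass, and Nrg1 was too low to be tested.

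None of 11 Hippo pathway genes, 16 genes of the basal lamina and its receptors or 11 effectors of radial sorting passed. Their median log2 fold changes were -0.05, 0.03 and 0.06. Yap1, the growth-promoting effector of the Hippo pathway, stood at 36.8 against 38.0 CPM at P0 and 37.7 against 28.7 CPM at P7. Lamc1, a laminin chain of the Schwann cell basal lamina, stood at 742 against 631 CPM and 338 against 240 CPM. The self-test recovered 61% of simulated 2-fold changes, so smaller differences in these groups may go uncalled.

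Growth and stress genes gave few calls. None of 14 ribosome biogenesis genes passed, but all 14 were above 0 at P7 (median plain log2 ratio 0.92) and 6 of 14 at P0 (median -0.13). Nop58, a component of the nucleolar snoRNPs, stood at 133 against 89.0 CPM at P0 and 123 against 34.6 CPM at P7. Of 14 glycolysis genes Aldoa was lower, with 248.6 against 402 CPM and 195 against 374 CPM, and none was higher. Over all tested genes 3.88% were lower, so this single call says little about the list. Of 11 p53 target genes, Cdkn1a and Trp53inp1 were lower, and Trp53inp1 stood at 18.1 against 31.7 CPM and 17.97 against 31.0 CPM. None of the 10 dissociation stress genes passed.

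**Figure D5:**
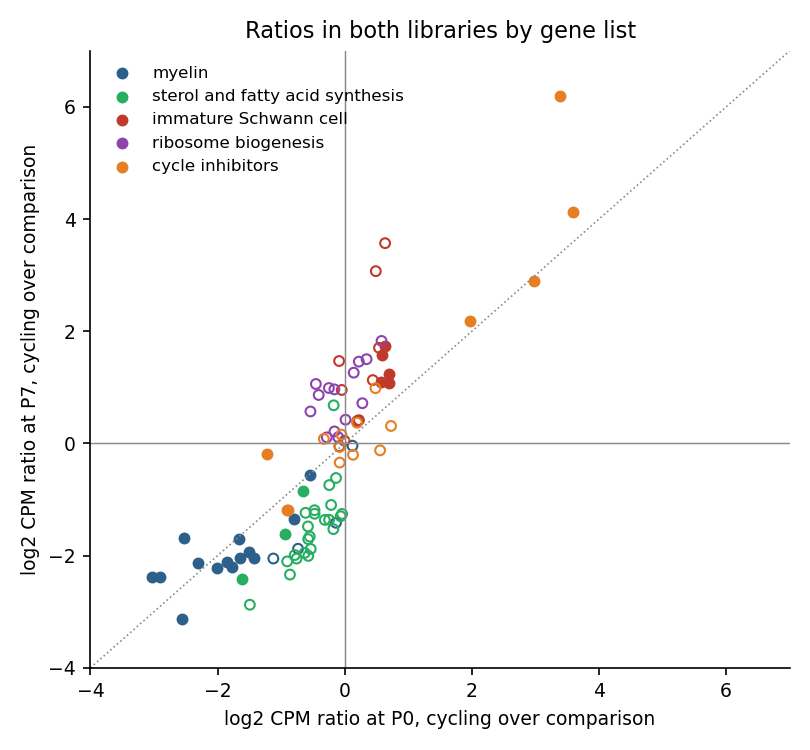
Log2 ratio of CPM in cycling over comparison cells at P0 (x axis) and P7 (y axis) for the tested genes of 5 lists, 1 point per gene; filled points passed the test over both libraries and the dotted line marks equal ratios. Of the 18 myelin genes 17 lie below 0 at P0 and all 18 at P7, and all 14 ribosome biogenesis genes lie above 0 at P7.

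Outside all lists, the genes with the largest rise were parts of the division machinery too. Cit, a kinase gene of the cleavage furrow, stood at 98.8 against 2.15 CPM at P0 and 82.8 against 0.277 CPM at P7. Cdca5 (sororin), which protects sister chromatid cohesion, stood at 47.4 against 1.28 CPM and 35.1 against 0.240 CPM, and its log2 fold change was 6.00 (SE 0.42). The other 4 were Iqgap3, the chromatin regulator gene Cdca2, the centrosomal kinase gene Nek2 and the spindle motor gene Kifc1, with log2 fold changes from 5.74 to 6.51. As cycle genes these follow from the choice of cells.

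The genes with the largest fall outside all lists are less tied to a single function. Slc36a2, an amino acid transporter gene, stood at 6.27 against 56.3 CPM at P0 and 72.7 against 429 CPM at P7, a log2 fold change of -2.98 (SE 0.18, adjusted p = 0.00027, edgeR quasi-likelihood, Benjamini-Hochberg). Sema6c, a transmembrane semaphorin gene, stood at 3.37 against 23.8 CPM and 8.33 against 63.8 CPM. Kcnk1, a potassium channel gene, stood at 0.549 against 5.38 CPM and 46.0 against 229 CPM. Il16, Rasgef1a and Ecscr had log2 fold changes of -2.70, -2.66 and -2.64. All 6 were lower in members in both libraries, which the rule for naming genes required.

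Cycling mesenchymal cells of the same libraries, 41 at P0 and 14 at P7, were used to ask which differences were not shared between lineages. Among 13667 genes tested for an interaction of lineage and class, 2 were called (0.0146%, edgeR quasi-likelihood, Benjamini-Hochberg), and 748 had an unadjusted p under 0.05. The 2 were the haemoglobin genes Hba-a1 and Hbb-bt. The fit had 1 library term for both lineages, so changes with age that differ by lineage enter the spread and can hide calls. Cdkn1a did not pass (difference in log2 fold change -1.25, SE 0.41), so no difference between lineages was shown for it. In cycling against comparison mesenchymal cells Cdkn1a stood at 32.8 against 30.4 CPM at P0 and 53.6 against 53.9 CPM at P7, and Cdkn2c at 86.8 against 13.2 CPM and 274 against 19.8 CPM.

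P14 was the only other library with at least 20 cells in each class, 28 cycling and 758 comparison cells, and its values carry no test. All 17 myelin genes with at least 20 UMIs at P14 were below 0, with a median log2 ratio of -2.90. Egr2 stood at 32.3 against 99.2 CPM and Sox2 at 306 against 164 CPM. Of the genes lower at P0 and P7, leaving out the listed cycle genes, 92.6% of 554 were below 0 at P14. Among all 10918 genes with as many UMIs 48.2% were below 0. Of those higher at P0 and P7, 95.9% of 714 were above 0, against 51.8%. Cycle genes outside the lists, such as Cit, were not left out. The P14 cells were chosen by the same 6 genes, so the share of higher genes follows in part from the choice. The immature list was even at P14, with 6 genes above and 6 below 0.

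Between ages, summed myelin RNA differed less in cycling than in comparison cells. The summed myelin list was 2.99-fold higher at P7 than at P0 in members (interval 2.96 to 3.01) and 5.11-fold higher in comparison cells (5.09 to 5.12). With cells thinned to 2000 UMIs these became 1.67 and 4.70. The gate was applied anew after thinning and left 510 members at P0 and 77 at P7, so the cells differ as well as the depth. The 19 P7 members above 5% held 69.3% of their class's myelin UMIs, and the median share per member was 1.02% at P0 and 1.35% at P7, against 1.43% and 11.5% in comparison cells. Mitosis RNA in members was nearly level, at 0.962 of its P0 value, and 1.13 after thinning. The mitosis list includes Ube2s, which was far lower in members at P7 than at P0, and the ratio without Ube2s was not computed. DNA replication RNA in members was 1.28-fold higher at P7 (1.25 to 1.32). These are ratios of 1 library to another, made with different software versions, and the part of this in the ratios was not tested.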

How the data were processed

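Droplet single-cell libraries of pooled mouse sciatic nerves were measured at 5 ages. The authors deposited whole-number UMI counts per gene and barcode, already limited to called cells. Version 5.0.1 of Cell Ranger is named in the P0 and P14 files and 7.0.0 in the P7 files, per the file headers. The submitters' processing notes name Seurat and mm9, while the gene identifiers match GENCODE M21; whether intronic reads were counted is not given in the sources used here. Genes were joined by Ensembl identifier. The members, gene lists and markers were chosen with earlier results of these data known. All listed genes were found in the files.

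The deposited counts, added up over the cells of a class, entered a model in R 4.3.3 with edgeR 4.0.16 (TMM scaling, low-count filter, robust quasi-likelihood, library and class as terms, 1 residual degree of freedom). SEs are the log2 fold change divided by the square root of F. The rule's genes, Sox10, Cdh19 and the lists of DNA replication, mitosis and cycle drivers stayed in the fit and the counts of called genes. No test of theirs is reported. Cycling and comparison sums of 1 library share their animals and are paired by it. Alternatives included DESeq2 1.42.0, thinning, count splitting, depth matching and removal of doublets called by Scrublet (scanpy 1.11.5), which called 4.55% at P7 but none at P0, where the highest-scoring 7.85% were removed. Shares carry Clopper-Pearson and levels exact Poisson intervals. In data simulated for this comparison (14972 genes), 100 genes were changed 2-fold and 100 were changed 4-fold. The fit recovered 61% of the 2-fold and 96% of the 4-fold changes, and called 31 unchanged genes. Those 31 made up a larger share of the calls than the limit on the adjusted p aims at. Some of the genes called in the real data may therefore be false calls.

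Genes were named by rule: up to 3 per list with the largest change among those passing with the same sign in both libraries. For lists with no test reported, the largest ratios with at least 20 UMIs were taken. The rule's and gate genes were added. Outside the lists, the 6 highest and 6 lowest passing genes were taken, leaving out unnamed models. These had a mean of at least 20 CPM and the same sign in both libraries. Other genes in the text were picked for their known role or after their values were seen. P28 and P60, with under 20 cycling cells, gave shares only. The ganglion library was not used. Values of overlapping genes and of near-identical copies are uncertain. Results for 2 genes of the lists are not reported here.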

Additional observations from a re-analysis of the deposited data

Results flagged for a closer look

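The haemoglobin genes Hba-a1 and Hbb-bt differed between lineages in the test of the interaction itself. The log2 contrast of cycling over comparison cells was lower in Schwann than in mesenchymal cells by a difference of -4.77 for Hba-a1 (SE 0.52, adjusted p = 0.00599, edgeR quasi-likelihood, Benjamini-Hochberg) and -5.48 for Hbb-bt (SE 0.44, adjusted p = 0.000448 by the same edgeR test). The sums behind Hba-a1 at P0 were 145 CPM in cycling and 226 CPM in comparison Schwann cells, against 1078 and 58.2 CPM in mesenchymal cells, so the 41 cycling mesenchymal cells of P0 stood apart. At P7 Hba-a1 and Hbb-bt were at 0 in both cycling classes.

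Some plain CPM ratios had opposite signs at P0 and P7, and the difference between the ages was not tested, since each has 1 library. The median log2 ratio of the ribosome biogenesis list was -0.13 at P0 and 0.92 at P7, where the median of all tested genes was -0.04 and 0.26. That of the p53 target list was -0.26 and 0.22, below the median of all tested genes at both ages. The summed p53 target list was lower in members at both ages, at 0.738 of the comparison level at P0 and 0.699 at P7. The log2 ratio of Ccnd1 was -0.59 at P0 (interval -0.63 to -0.55) and 1.17 at P7 (1.09 to 1.24). That of Ccnd3 was -1.03 (-1.15 to -0.91) and 0.49 (0.29 to 0.68).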

How the results depend on the processing

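Of the 35 named genes with a test, none changed direction under 13 other settings, 3 kept their call under all of them (Rbl1, Nek2 and Kifc1) and 14 lost it under 1. Without the library as a replicate block, 115 genes were higher and 0 lower in members (32 of the 35 named calls were lost, and no myelin gene was called, against 14), since the age difference then enters the spread. With P14 added, 1455 were higher and 1168 lower. With no low-count filter 955 were lower, and with 4 cycle genes required 988 were lower. The other settings gave 738 to 1279 genes higher and 398 to 769 lower. With the block kept, 10 to 17 myelin genes were lower. The interaction with mesenchymal cells gave 57 genes without the filter and 18 after thinning, against 2. The share of cycling cells was 34.3% at P0 and 4.46% at P7 with 2 genes, 16.7% and 2.12% with 4, 24.8% and 3.48% with 2 UMIs of the lineage genes, and 14.7% and 1.95% after thinning. P7 over P0 in members was 3.05 for myelin, 0.981 for mitosis under median-of-ratios scaling, and 1.67 for myelin, 1.13 for mitosis, 1.16 for DNA replication and 1.90 for the immature list after thinning. In comparison cells it was 6.53 and 4.70 for myelin and 2.10 and 1.89 for the immature list under the same changes. Apart from the block, the cause of these shifts was not tested. Leaving out a library leaves no residual degrees of freedom, so no count of calls could be had, and within-library ratios stand in the text. A test in libraries that the rule did not use could not be run, with P14 alone reaching 20 cells.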

Other observations

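The 10 genes of the dissociation stress list summed to 1445 CPM in P0 members and 8937 CPM in P7 members, and to 1480 and 8639 CPM in comparison cells, so both classes of a library stood at a like level. Fos stood at 195 CPM in P0 members and 2477 CPM in P7 members. Ube2s, a partner of the mitotic ubiquitin ligase, stood at 686 CPM in members at P0, 21.5 CPM at P7 and 828 CPM at P14. The whole mitosis list in members summed to 8736, 8404 and 14200 CPM. In comparison cells Ube2s stood at 197, 9.32 and 145 CPM. P7 is the library made with another software version and gene list, and the part of this in the Ube2s values was not tested.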
